A study of Mus musculus with 6 samples.

Results

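The MHC class II presentation genes H2-Aa, H2-Ab1, H2-Eb1, H2-DMa, H2-DMb1, Cd74 and Ciita were followed in whole-transcript array profiles of KLS cells, which are bone marrow cells sorted for Kit and Sca-1 and against mature lineage markers, and which include the blood stem cells and multipotent progenitors. Members were taken by gene symbol, from probe sets whose platform annotation gives that symbol or an older synonym and no other gene, and all 7 of 7 were among the 20059 genes measured. The study compared 3 arrays from wild-type mice with 3 arrays from Dnmt3a+/- mice, heterozygous for loss of Dnmt3a, a gene for a DNA methyltransferase. No treatment is named for either genotype, and the sources used here give no strain, age or pooling of animals. Whether each array is a separate animal is not labelled either, so the p-values reflect spread among samples that may be technical in part.

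MHC class II molecules are surface receptors that show peptides from engulfed proteins to CD4+ T cells. They are made of an alpha and a beta chain, held ready in the cell by the invariant chain, and loaded with peptide in late endosomes by the chaperone H2-DM, which a further dimer, H2-O, inhibits. B cells, dendritic cells and macrophages carry them at high levels, and all their genes are switched on together by the coactivator Ciita, which docks on a complex of Rfx, Creb and Nfy factors at a promoter module of X and Y boxes.

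Because this module is what links the genes, 5 promoter windows are shown, from the chains with the most positive differences (H2-Aa and H2-Eb1), a loading chaperone chain (H2-DMb1) and the chains of its inhibitor (H2-Oa and H2-Ob). They are RefSeq sequences of build GRCm38.p6, each from 250 bases before to 50 after a gene start, and the RefSeq table held windows of 4 of the 7 members (H2-Aa, H2-Eb1, H2-DMa and H2-DMb1). H2-Aa lies at chr17:34287774-34288073 on the minus strand. On the plus strand lie H2-Eb1 at chr17:34305617-34305916, H2-DMb1 at chr17:34152941-34153240, H2-Oa at chr17:34092129-34092428 and H2-Ob at chr17:34238655-34238954. Capitals mark the Y-box core TGATTGG, which holds the inverted CCAAT motif that Nfy binds, and the X-box core GCAAC where it stood at most 40 bases before the Y core on the same strand.
H2-Aa: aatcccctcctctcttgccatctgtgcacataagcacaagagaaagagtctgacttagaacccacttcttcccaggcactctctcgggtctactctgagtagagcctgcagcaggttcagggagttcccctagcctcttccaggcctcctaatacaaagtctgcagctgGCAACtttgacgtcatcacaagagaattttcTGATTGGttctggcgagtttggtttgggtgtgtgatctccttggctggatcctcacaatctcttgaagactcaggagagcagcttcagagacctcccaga
H2-Eb1: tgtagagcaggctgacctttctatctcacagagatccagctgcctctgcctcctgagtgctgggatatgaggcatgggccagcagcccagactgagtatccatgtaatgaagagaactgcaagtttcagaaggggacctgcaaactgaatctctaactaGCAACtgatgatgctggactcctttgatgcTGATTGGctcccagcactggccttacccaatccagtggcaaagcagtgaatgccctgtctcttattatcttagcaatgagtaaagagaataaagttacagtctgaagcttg
H2-DMb1: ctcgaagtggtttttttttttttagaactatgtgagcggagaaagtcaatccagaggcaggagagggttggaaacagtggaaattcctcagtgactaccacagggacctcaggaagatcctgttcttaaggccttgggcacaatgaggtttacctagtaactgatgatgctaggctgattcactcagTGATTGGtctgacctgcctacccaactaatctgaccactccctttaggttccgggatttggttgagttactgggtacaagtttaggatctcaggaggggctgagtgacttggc
H2-Oa: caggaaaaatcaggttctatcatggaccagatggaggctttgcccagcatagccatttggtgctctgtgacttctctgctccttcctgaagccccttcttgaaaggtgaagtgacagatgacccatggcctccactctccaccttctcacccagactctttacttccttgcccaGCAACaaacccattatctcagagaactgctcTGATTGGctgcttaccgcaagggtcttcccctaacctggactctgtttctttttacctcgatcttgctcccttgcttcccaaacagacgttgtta
H2-Ob: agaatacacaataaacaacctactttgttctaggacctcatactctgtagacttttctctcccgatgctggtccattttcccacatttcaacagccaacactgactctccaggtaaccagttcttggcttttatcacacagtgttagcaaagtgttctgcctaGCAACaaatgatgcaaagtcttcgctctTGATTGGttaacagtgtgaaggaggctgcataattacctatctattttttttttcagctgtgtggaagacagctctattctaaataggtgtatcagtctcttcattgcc

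In H2-Aa, H2-Eb1, H2-Oa and H2-Ob the X core was followed by the Y core after 26, 25, 26 and 23 bases. H2-Eb2, a second beta chain gene, held the same pair with 25 bases between. H2-DMb1 held the Y core without an exact GCAAC before it. The search took exact strings only, and gtaac, a near match, stood there, followed by the same tgatgatgct as in H2-Eb1. Neither of the windows of H2-DMa held the Y core. Searched on both strands over 32851 windows of the same length, TGATTGG was present in 7.82%, GCAAC in 35.2% and the ordered pair in 0.301%. The motifs were chosen after the sequences were read, and a match is a description and not a bound site.

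Values are the deposited normalized intensities on the log2 scale, and a gene's value is the mean of its probe sets above the table's median level of 5.89. This kept 60 of the 77 probe sets named for the members, from 3 of 3 for H2-DMb1 to 19 of 30 for Ciita. At the threshold, a Ciita probe set with a mean of 5.91 was used and another with 5.87 was not. The mean is over both genotypes, so a difference between them could decide such a case. The first read 5.80, 5.68 and 5.95 on wild-type against 6.06, 5.87 and 6.08 on Dnmt3a+/- arrays, a difference of 0.19. The second read 6.14, 5.92 and 6.44 against 6.31, 6.02 and 4.41, a difference of -0.58. Levels are not compared between genes, because probe sets differ in how brightly they hybridise. The sort markers Kit (25 of 25) and Ly6a, which encodes Sca-1 (4 of 4), kept all their probe sets. Dnmt3a+/- replicate 2 stood apart from the other arrays, with a mean Pearson correlation across genes of 0.904 against 0.938 to 0.949 for the others, and gene differences and list medians that it moved by more than 1.5 times are also given without it. The precision is limited by the number of arrays. In bulk RNA, fewer cells of a type and less RNA per cell cannot be told apart.

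Of the 3 peptide-binding chains among the members, H2-Aa stood at 1.46 and H2-Eb1 at 1.32 times the wild-type level, with no overlap between genotypes. The third, H2-Ab1, the invariant chain gene Cd74 and the coactivator gene Ciita stood at 1.11, 1.08 and 1.07 times wild-type and overlapped, as did H2-DMa and H2-DMb1 at 0.925 and 0.721 times. No member passed over all genes (limma, Benjamini-Hochberg, adjusted p from 0.631 to 0.883), and no gene of the 20059 did (0%, smallest adjusted p = 0.535). At an unadjusted p of 0.05 in the same limma fit, 2 of the 7 members were past the threshold, both higher, where 7.49% of all genes were past it and 2.92% were past it and higher. The genotypes did not overlap for 2 of 7 members, both higher, against 15.8% of all genes in either direction and 6.74% higher. With 7 genes, these counts are small. The median log2 difference, Dnmt3a+/- minus wild-type, was 0.11 over the members and -0.023 over all genes, and 5 of 7 members were positive where 54.3% of all genes were negative. The members' median was 0.19 without wild-type replicate 1, 0.039 without wild-type replicate 2, 0.22 without Dnmt3a+/- replicate 1 and 0.069 without Dnmt3a+/- replicate 2.

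**Figure D1:**
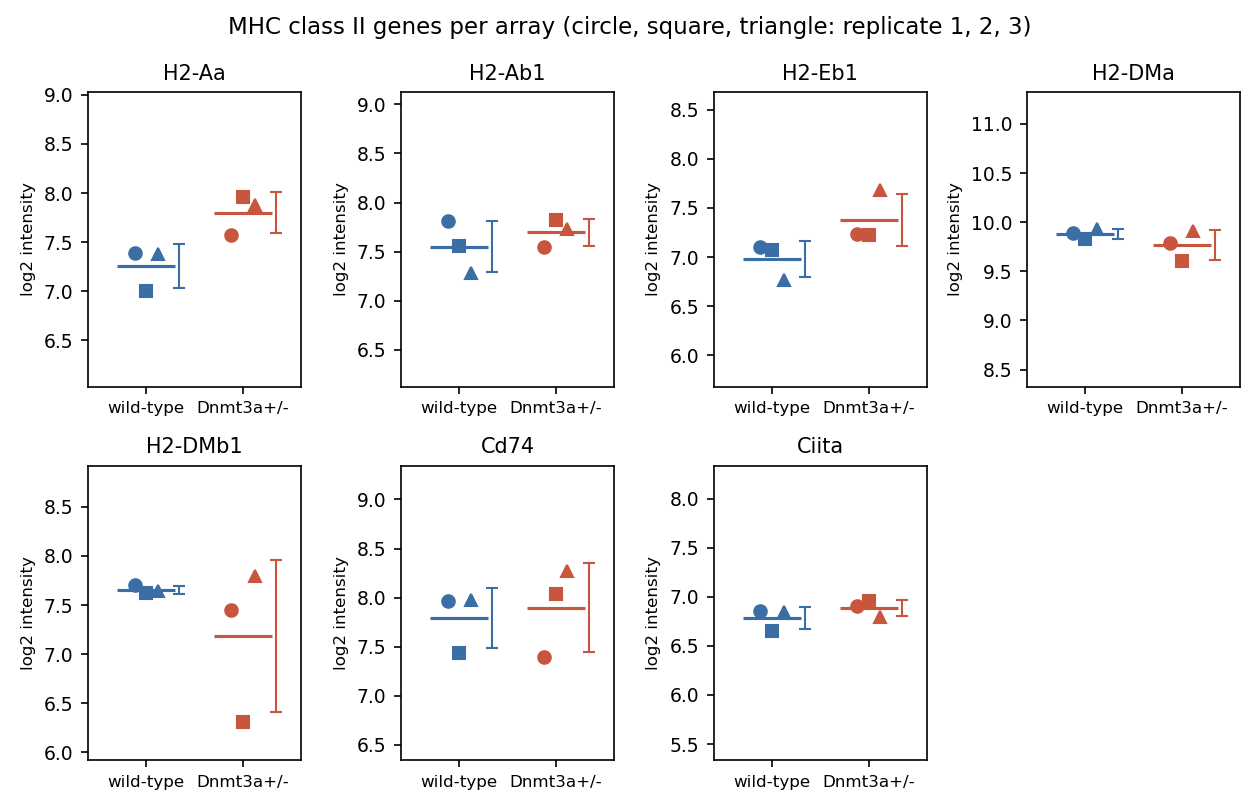
Log2 intensity of the 7 class II presentation genes on each array, in panels spanning the same log2 range, with the mean as a line and the SD as a bar (n = 3 arrays per genotype; circle, square and triangle are replicates 1, 2 and 3). H2-Aa and H2-Eb1 are the genes whose Dnmt3a+/- points all lie above the wild-type points, and the low square of H2-DMb1 is Dnmt3a+/- replicate 2 at 6.31.

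H2-Aa encodes the alpha chain of the I-A molecule. Its log2 level was 7.39, 6.998 and 7.38 on the wild-type arrays (replicates 1 to 3) and 7.57, 7.96 and 7.88 on the Dnmt3a+/- arrays. All Dnmt3a+/- arrays were above all wild-type arrays, with the nearest pair 7.57 and 7.39. The means were 7.26 ± 0.22 and 7.80 ± 0.20 (SD, n = 3), a log2 difference of 0.55 (SE 0.16, 95% confidence interval 0.18 to 0.91; limma unadjusted p = 0.00886, adjusted p = 0.631; exact two-sided permutation p = 0.1, the smallest that 3 against 3 arrays allow). The difference was 0.24 with overlapping genotypes when its 3 dim probe sets were included, and at the 75th percentile filter the genotypes overlapped at 0.49 (limma unadjusted p = 0.19 and 0.0579).

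H2-Ab1, the beta chain that pairs with H2-Aa, read 7.81, 7.56 and 7.28 on wild-type arrays against 7.55, 7.82 and 7.73 on Dnmt3a+/- arrays. The highest wild-type array was level with the highest Dnmt3a+/- array. The difference of 0.15 (SE 0.16, interval -0.21 to 0.51) was within the spread between arrays (limma unadjusted p = 0.374, adjusted p = 0.753). Without wild-type replicate 1 it was 0.28, without wild-type replicate 3 0.014, without Dnmt3a+/- replicate 1 or 2 0.22 or 0.088, and at the 75th percentile filter 0.026.

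H2-Eb1, the beta chain of the I-E molecule, read 7.10, 7.07 and 6.76 on wild-type arrays against 7.23, 7.22 and 7.69 on Dnmt3a+/- arrays. The genotypes did not overlap, although 2 of the Dnmt3a+/- arrays were close to the highest wild-type array and replicate 3 was well above them. The log2 difference was 0.40 (SE 0.17, interval 0.02 to 0.78; limma unadjusted p = 0.0416, adjusted p = 0.631; exact permutation p = 0.1). Without Dnmt3a+/- replicate 3 it was 0.25, and at the 75th percentile filter it was 0.20 with overlapping genotypes (limma unadjusted p = 0.133 and 0.379). The unadjusted p was also above 0.05 with the median of probe sets (0.108, overlapping), with the replicate block (0.0757) and without wild-type replicate 2 (0.0577) or 3 (0.146). All 5 probe sets of H2-Ea, the gene of the partner alpha chain, which RefSeq lists as a transcribed pseudogene in C57BL/6J, were below the table's median. Without the filter H2-Ea read 4.49 ± 0.24 on wild-type arrays against 4.52 ± 0.06 on Dnmt3a+/- arrays (SD, n = 3). The related beta chain gene H2-Eb2 rested on 2 of 5 probe sets and differed by 0.11 (SE 0.19), by 0.020 without Dnmt3a+/- replicate 2 and by -0.0074 without wild-type replicate 1.

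Cd74 encodes the invariant chain, which guides new class II molecules to endosomes and blocks their groove until loading. It read 7.96, 7.44 and 7.97 on wild-type arrays against 7.39, 8.03 and 8.27 on Dnmt3a+/- arrays. Wild-type replicate 2 and Dnmt3a+/- replicate 1 were about equally low and the other 4 arrays were higher, so both genotypes spanned most of the range. The difference of 0.11 (SE 0.25, interval -0.46 to 0.68) was below the spread (limma unadjusted p = 0.673, adjusted p = 0.883). Its sign depended on single arrays, at -0.069 without wild-type replicate 2, -0.080 without Dnmt3a+/- replicate 3 and 0.36 without Dnmt3a+/- replicate 1. It was 0.19 and 0.20 without wild-type replicate 1 and 3, 0.041 without Dnmt3a+/- replicate 2 and -0.19 with array weights.

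H2-DMa encodes the alpha chain of the H2-DM chaperone. It read 9.89, 9.83 and 9.93 on wild-type arrays against 9.79, 9.61 and 9.91 on Dnmt3a+/- arrays. The values of both genotypes lay close together, with Dnmt3a+/- replicate 2 lowest. The difference of -0.11 (SE 0.12, interval -0.39 to 0.16; limma adjusted p = 0.751) was near the median of -0.12 for all genes in the same decile of levels, the brightest. Without Dnmt3a+/- replicate 2 it was -0.032, after cyclic loess -0.066, and with the median of probe sets -0.29. It was -0.20 with dim probe sets included and -0.18 without Dnmt3a+/- replicate 3, and in both of these every Dnmt3a+/- array lay below every wild-type array. Without Dnmt3a+/- replicate 2 the median of that decile was -0.048.

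H2-DMb1, the beta chain of H2-DM, read 7.70, 7.63 and 7.64 on wild-type arrays against 7.45, 6.31 and 7.80 on Dnmt3a+/- arrays. The wild-type arrays were nearly equal, while Dnmt3a+/- replicate 2 was far below every other array and replicate 3 was above all of them. The difference of -0.47 (SE 0.33, interval -1.24 to 0.30; limma adjusted p = 0.682) became -0.034 without Dnmt3a+/- replicate 2. Without Dnmt3a+/- replicate 3 it was -0.78, with every remaining Dnmt3a+/- array below the wild-type arrays (limma unadjusted p = 0.0397, adjusted p = 0.495). It was -0.76 at the 75th percentile filter, -0.25 with the median of probe sets and -0.24 with array weights. The low array was seen in 2 of its 3 probe sets, at 5.40 and 6.83 against lowest values of 7.30 and 8.46 elsewhere, and not in the remaining one, at 6.70 against 6.38 to 6.79. Of 3 further probe sets that the platform assigns to both H2-DMb1 and its near copy H2-DMb2, 3 had a negative difference (-0.093, -0.57 and -0.67). Dnmt3a+/- replicate 2 was the lowest array in all of these. H2-DMb2 by its own 2 probe sets differed by -0.33 (SE 0.20; -0.21 without Dnmt3a+/- replicate 2), with overlapping genotypes. As the copies are alike, how signal divides between them is uncertain.

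Ciita encodes the coactivator that sets class II gene activity. It read 6.85, 6.65 and 6.84 on wild-type arrays against 6.91, 6.96 and 6.80 on Dnmt3a+/- arrays. Replicate 2 was the lowest wild-type array, as it was for H2-Aa, H2-DMa, H2-DMb1 and Cd74, and the other wild-type arrays lay among the Dnmt3a+/- arrays. The difference was 0.10 (SE 0.11, interval -0.16 to 0.37; limma adjusted p = 0.757), which leaves a change of up to 1.29-fold upward within the interval. It rested on more probe sets than any other member, 19, but 11 of its 30 were below the table's median, and with these included the difference was 0.015. It was 0.039 without wild-type replicate 2 and 0.069 without Dnmt3a+/- replicate 2.

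Single probe sets showed which differences were shared along a gene. Of the 60 used, 42 were positive and 18 negative, where 50.3% of all probe sets were negative. The filter took the mean of all arrays, so Dnmt3a+/- values could decide whether a probe set passed, and these counts depend in part on it. Cd74 probe set 4738302 (5.54, 4.68 and 6.45 against 5.30, 6.76 and 7.10) passed, at 0.83. H2-DMa probe set 5472722 (5.95, 6.45 and 5.94 against 5.71, 5.55 and 5.13) did not, at -0.65. Some positive ones were also left out, such as Cd74 probe set 5124932 at 0.62. For H2-Aa all 6 used were positive, from 0.14 to 0.98, and 3 had non-overlapping genotypes (6.31% of all probe sets did, on the higher side). Its 3 dim probe sets, left out by the filter, were all negative, at -0.50, -0.40 and -0.18, so the direction was not shared by all probe sets of the gene. Probe set 4727575 of H2-Aa read 6.48, 6.72 and 6.21 on wild-type arrays against 7.28, 7.28 and 7.03 on Dnmt3a+/- arrays, and probe set 4353190 read 6.55, 6.69 and 6.69 against 7.01, 7.31 and 7.41. In both, the genotypes were clearly apart. In the third without overlap, probe set 5489966, the nearest arrays almost met, at 8.46 in wild-type and 8.47 in Dnmt3a+/- (limma unadjusted p = 0.16). The largest H2-Aa difference, in probe set 4696140, owed much to wild-type replicate 2 at 5.48, since the other wild-type arrays read 7.38 and 7.34 and overlapped with Dnmt3a+/- replicate 1 at 6.81.

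For H2-Eb1, 7 of 8 probe sets were positive, from -0.028 to 1.002, and 2 did not overlap. Probe set 4605680 of H2-Eb1 read 6.05, 6.34 and 6.45 against 6.87, 6.61 and 7.07. H2-Ab1 had 4 of 5 positive and none without overlap. The 5 of H2-DMa ran from -0.41 to 0.037, and Ciita had 14 of 19 positive between -0.44 and 0.76. The Ciita probe sets left out by the filter went both ways, from -0.94 to 0.71.

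Probe sets of Cd74 disagreed most. Of 14, 8 were positive and 6 negative, from -1.0025 to 1.06. Probe set 4353500 read 10.06 on Dnmt3a+/- replicate 2 and 9.10 on replicate 3, against 7.44 to 8.42 on all other arrays. Probe set 5371783 went the other way, with 6.85 and 6.90 on Dnmt3a+/- replicates 1 and 2 against 7.87 to 8.90 elsewhere. The gene mean near wild-type is thus an average of unlike probe sets, and where each lies along the gene was not analysed here.

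Over all members, 6 of the 60 probe sets had an unadjusted p under 0.05 in limma, all of them higher, where 6.21% of all 628415 probe sets had one in either direction, 2.8% were higher and 3.41% lower. The genotypes did not overlap in 7 probe sets on the higher side, against 6.31% of all, and in 3 on the lower side, against 6.1%. None passed over all probe sets (smallest adjusted p = 0.799). Probe sets of 1 gene read the same RNA and are not replicates.

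**Figure D2:**
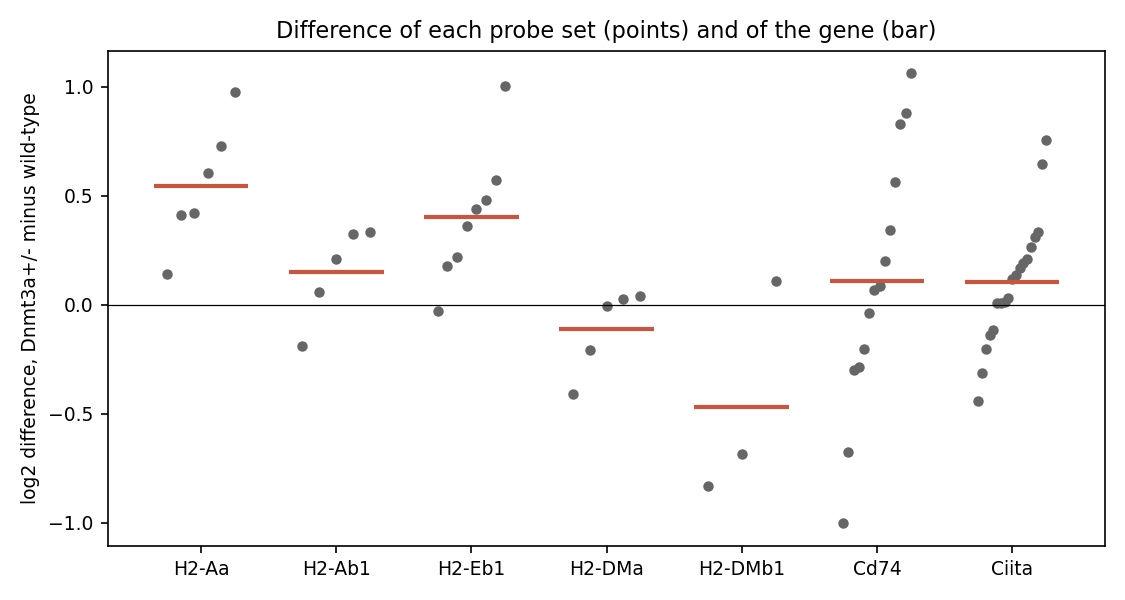
Log2 difference, Dnmt3a+/- minus wild-type, of each of the 60 probe sets used (points, sorted within a gene) and of the gene (bar). All H2-Aa points drawn lie above 0, and the Cd74 points run from -1.0025 to 1.06 around a gene difference of 0.11. The dim H2-Aa probe sets, which are not drawn, were negative.

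H2-Oa and H2-Ob, the chains of the H2-O dimer that restrains H2-DM, lay lower on every array of Dnmt3a+/- cells than on each wild-type array, opposite to H2-Aa and H2-Eb1. H2-Oa read 8.91, 8.49 and 8.34 on wild-type arrays against 8.07, 7.98 and 8.25 on Dnmt3a+/- arrays, a log2 difference of -0.48 (SE 0.17; limma unadjusted p = 0.0207, adjusted p = 0.631; exact permutation p = 0.1). The nearest arrays, 8.34 and 8.25, were close, and without wild-type replicate 1 the difference was -0.31. The unadjusted limma p was then 0.0592, and it was 0.0527 and 0.0561 without Dnmt3a+/- replicate 1 and 2. H2-Ob, which rested on 1 probe set, read 9.36, 9.55 and 9.26 against 8.55, 8.73 and 9.14, a difference of -0.58 (SE 0.17; limma unadjusted p = 0.00911, adjusted p = 0.631). Neither passed over all genes. Both stayed non-overlapping after cyclic loess, at -0.45 and -0.54, and after further quantile normalization, at -0.46 and -0.55. H2-Oa also did so at the 75th percentile filter (-0.47) and with the median of probe sets (-0.56), settings that cannot alter the 1 probe set of H2-Ob. Leaving out an array, or changing the variance model, array weights or block, cannot create overlap. The loading list of H2-DMa, H2-DMb1, H2-DMb2, H2-Oa, H2-Ob and Cd74 thus had 5 of 6 negative and a median of -0.40, while the list of chains (H2-Aa, H2-Ab1, H2-Eb1 and H2-Eb2) had 4 of 4 positive and a median of 0.27. Without Dnmt3a+/- replicate 2 the loading median was -0.12, without wild-type replicate 1 it was -0.23, and without wild-type replicate 3 the median of the chains was 0.15. The difference between these lists was not tested.

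The machinery that acts with Ciita at the X and Y boxes had mostly negative differences. Of 11 genes other than Ciita, 9 were negative with a median of -0.15, and 5 were non-overlapping and lower, against 9.05% of all genes. The median was -0.11 without Dnmt3a+/- replicate 2, and with Ciita counted it was -0.14, and -0.044 without that array. At an unadjusted p of 0.05, 2 were lower and 0 higher, where 4.57% of all genes were lower. Several genes of this list are bright, with wild-type means of 9.35 for Ep300, 9.76 for Crebbp and 9.55 for Creb1. Of all genes 54.3% were negative, and those in level deciles 8, 9 and 10, the brightest, had medians of -0.12, -0.14 and -0.12. Without Dnmt3a+/- replicate 2 these medians were -0.057, -0.068 and -0.048. Rfx5, the DNA-binding subunit of the Rfx complex, read 7.95, 7.93 and 7.97 on wild-type arrays against 7.69, 7.68 and 7.67 on Dnmt3a+/- arrays. The arrays of each genotype were almost level, and the difference was -0.27 (SE 0.10; limma unadjusted p = 0.0241, adjusted p = 0.631). The acetyltransferase gene Ep300 differed by -0.32 (SE 0.12) and the Rfx subunit gene Rfxank by -0.21 (SE 0.12; -0.12 without Dnmt3a+/- replicate 2), the latter with overlap.

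Genes upstream of Ciita, from the interferon gamma receptor to the factors at its promoters, had 9 of 12 negative, where 54.3% of all genes were. Their median was -0.12, and between -0.17 and -0.094 with each array left out in turn. All genes in level deciles 8, 9 and 10 had medians of -0.12, -0.14 and -0.12. Without Dnmt3a+/- replicate 2 these decile medians were -0.057, -0.068 and -0.048. Usf1, Irf4 and Prdm1 are dimmer than these deciles, with wild-type means of 7.41, 7.14 and 7.13. In limma, 4 genes of the list were lower and 0 higher at an unadjusted p of 0.05, against 4.57% and 2.92% of all genes. Of the list, 0 passed adjusted p 0.05. The genotypes did not overlap for 4 lower genes and 1 higher gene, against 9.05% and 6.74% of all genes. The higher gene was Prdm1 at 0.27 (SE 0.14), or 0.14 without wild-type replicate 3. Jak2, a kinase of that receptor, read 8.16, 8.13 and 8.08 on wild-type arrays against 7.86, 7.61 and 7.70 on Dnmt3a+/- arrays (difference -0.40, SE 0.11; limma unadjusted p = 0.0071). Irf1, which the receptor induces and which binds a Ciita promoter, differed by -0.37 (SE 0.13), and Irf8, a factor of monocyte and dendritic cell development, by -0.47 (SE 0.18; -0.29 without wild-type replicate 3). These 3 did not overlap between genotypes. The plot of other pathway genes by array shows Jak2 and Irf1 among genes that lay lower on the Dnmt3a+/- arrays.

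**Figure D3:**
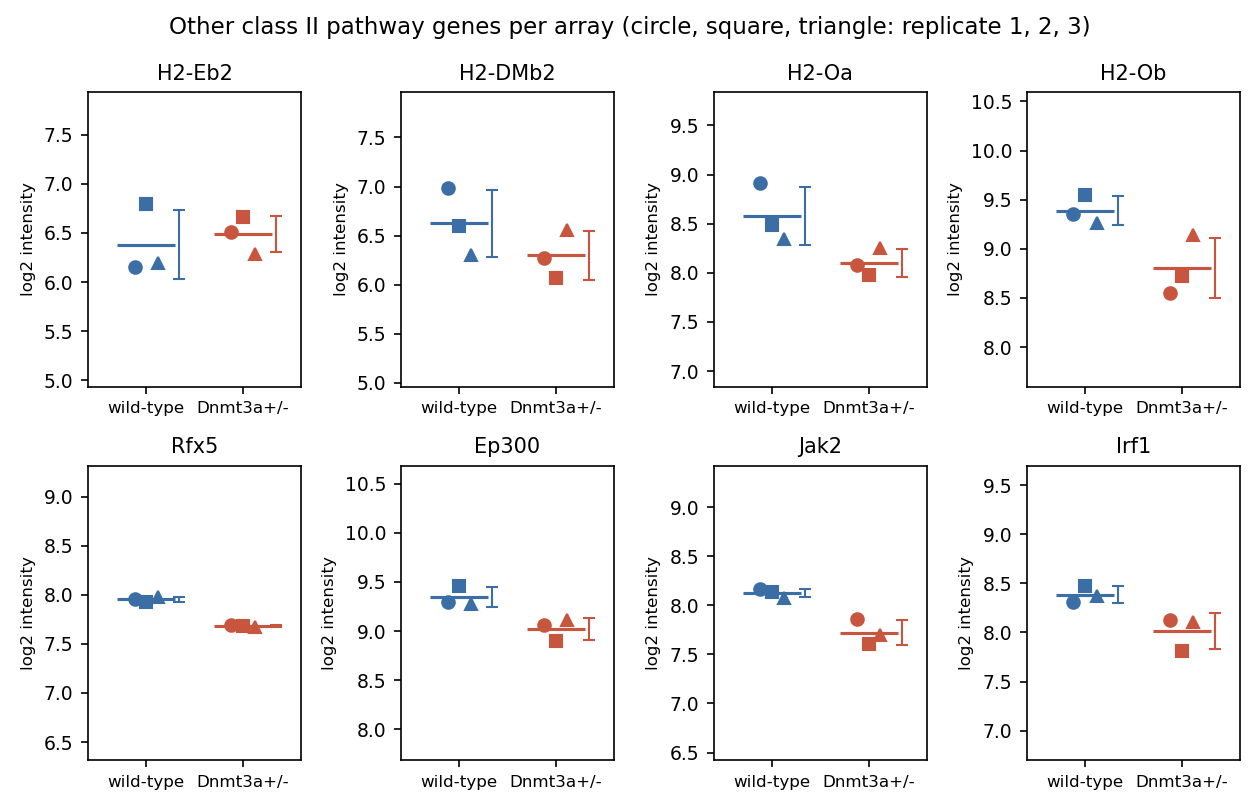
Log2 intensity per array of 8 other class II pathway genes, drawn as for the members (line, mean; bar, SD; n = 3 arrays per genotype). H2-Oa, H2-Ob, Rfx5, Ep300, Jak2 and Irf1 have every Dnmt3a+/- point below every wild-type point, while H2-Eb2 and H2-DMb2 overlap.

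Lysosomal processing genes had 11 of 12 negative, where 54.3% of all genes were. Their median was -0.15 (-0.10 without Dnmt3a+/- replicate 2), and 0 reached an unadjusted p of 0.05 in limma, where 7.49% of all genes did. The genotypes did not overlap for 1 of them, Cst3, which was lower, as were 9.05% of all genes. Ifi30, the thiol reductase that unfolds antigens, differed by -0.37 (SE 0.17), the protease inhibitor gene Cst3 by -0.23 (SE 0.12; -0.14 without Dnmt3a+/- replicate 2) and the cathepsin gene Ctsl by -0.25 (SE 0.15; -0.11 without wild-type replicate 1). Many genes of this list are bright, and all genes in the brightest decile had a median of -0.12 (-0.048 without Dnmt3a+/- replicate 2). Turnover and costimulation genes had 9 of 11 positive and a median of 0.053, which was -0.037 with dim probe sets included, 0.0047 without Dnmt3a+/- replicate 1 and 0.12, 0.036 and 0.094 without wild-type replicate 1, wild-type replicate 2 and Dnmt3a+/- replicate 3. Among them, the tetraspanin gene Cd82 differed by -0.38 (SE 0.15) and the costimulatory genes Cd86 and Cd40 by 0.40 (SE 0.19) and 0.14 (SE 0.14), which were 0.17 and 0.025 without Dnmt3a+/- replicate 2.

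**Figure D4:**
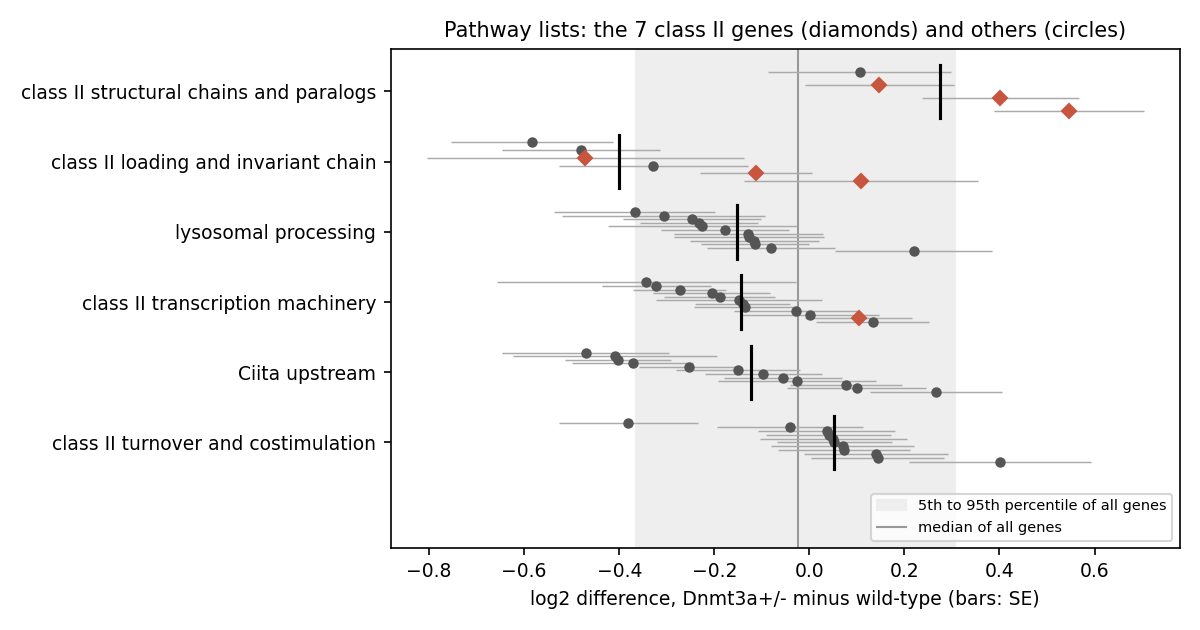
Log2 difference, Dnmt3a+/- minus wild-type, of each gene in 6 pathway lists (diamonds, the 7 members; circles, other genes; bars, SE; black line, list median; grey band, 5th to 95th percentile of all genes). The chains have a median of 0.27. The loading list, which includes the inhibitor chains H2-Oa and H2-Ob, has one of -0.40 (-0.12 without Dnmt3a+/- replicate 2).

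Markers of cells that carry class II at high levels were read beside these results. B cell markers, 12 of 13 listed, had 5 negative and 7 positive differences, with summed linear intensities of 3518 to 4516 in wild-type and 3649 to 4455 in Dnmt3a+/- arrays. Within them Cd79a, a chain of the B cell receptor complex, read 6.83, 6.23 and 6.56 on wild-type arrays against 6.58, 7.85 and 7.75 on Dnmt3a+/- arrays. Its partner chain gene Cd79b did not follow it, at 8.55, 8.89 and 8.40 against 8.67, 8.57 and 8.50. Pax5 read 7.40, 7.40 and 7.44 against 7.43, 7.77 and 7.36. The B cell co-receptor gene Cd22 differed by 0.51 (SE 0.14) and the complement receptor gene Cr2 by -0.32 (SE 0.11). The signs of this list depended on Dnmt3a+/- replicate 2. Without it, Pax5, Ebf1, Fcer2a and Igll1 turned negative, at -0.020, -0.098, -0.027 and -0.033, and Vpreb1 turned positive, at 0.0082. Dendritic cell markers, 12 of 13 listed, had 9 negative and 3 positive, with sums of 3259 to 3523 in wild-type and 2858 to 3183 in Dnmt3a+/- arrays, where Klrd1, also an NK cell receptor gene, differed by -0.71 (SE 0.17), Flt3 by -0.32 (SE 0.16) and Ccr7 by 0.17 (SE 0.12). Macrophage and monocyte markers, 14 of 14 listed, had 5 negative and 9 positive, with sums of 3179 to 3464 and 3144 to 3500, and with Csf1r at -0.73 (SE 0.19), Adgre1 at 0.42 (SE 0.15) and Cd163 at -0.39 (SE 0.14). Summed levels of the B cell and macrophage lists overlapped between genotypes and those of the dendritic cell list did not. Flt3, which is also a KLS marker, made up 1238 to 1555 of the dendritic sum on wild-type and 891 to 1273 on Dnmt3a+/- arrays. Without it the sums of the other 11 genes were 1968 to 2021 and 1910 to 1967, and nearly met. Every listed marker with a named probe set had one above the median in these 3 lists. The part of such cells in the class II differences was not tested.

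Neutrophil markers, cells that the sort should remove, had 6 of 6 measured positive, with Retnlg at 0.98 (SE 0.22), Mmp8 at 0.64 (SE 0.20) and S100a9 at 0.46 (SE 0.27). Without wild-type replicate 2, S100a9 was at 0.15, Camp at -0.034 and Ltf at -0.28, and without Dnmt3a+/- replicate 1 Mmp8 was at 0.42, Camp at -0.039 and Ltf at -0.23. T and NK markers had 4 of 7 positive, with Cd3e at 0.33 (SE 0.12), Ncr1 at 0.45 (SE 0.18) and Cd8a at 0.20 (SE 0.13), and 3 negative, Klrb1c at -0.32, Nkg7 at -0.24 and Cd4 at -0.031. Without Dnmt3a+/- replicate 2, Cd8a was at 0.12, Klrb1c at -0.20 and Nkg7 at -0.091. The erythroid genes Klf1 and Epor differed by 0.13 (SE 0.20) and 0.014 (SE 0.13), and by -0.10 and -0.0094 without that array. Markers of the KLS fraction had 6 of 8 negative, with Cd34 at -0.23 (SE 0.13) and Cd48 at -0.27 (SE 0.17), which were -0.14 and -0.11 without Dnmt3a+/- replicate 2.

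The mean profile of H2-Aa, H2-Ab1, H2-Eb1 and Cd74 over the 6 arrays, each centred on its own mean, was 0.022, -0.28 and -0.19 on the wild-type and -0.11, 0.21 and 0.35 on the Dnmt3a+/- arrays. It was highest on Dnmt3a+/- replicates 2 and 3. Of 16210 other genes with at least 3 probe sets, the nearest by root mean square distance were Abca15 (0.0518), Lypd3 (0.052), Epb41l1 (0.0584), Rab40c (0.0652) and Hephl1 (0.0683). The 4 genes were themselves farther from their own mean profile, at 0.160 to 0.207, with 634 to 2789 other genes nearer, so the likeness over 6 arrays does not single out a class II pattern. H2-DMb1 was at 0.611, farther than 16097 of these genes.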

How the data were processed

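Total RNA of sorted KLS cells was extracted with TRIzol, 20 ng was amplified as whole-transcript cDNA and biotin-labelled, per the labels' protocols. The authors deposited linear intensity values of 1256831 probe sets, made with RMA in Partek per the submitters' processing notes (versions not given in the sources used here). Array medians ran from 59.8 to 61.6, so arrays were brought to one scale and a shift of most genes cannot be seen. Log2 was taken without a pseudocount.

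Probe sets with 1 symbol in the platform annotation (318760) were named, with older symbols updated through RefSeq (GRCm38.p6). The table held 628415 probe sets above the median level, and the 221209 of them with a name were averaged per gene. Genotypes and replicate numbers came from the labels. The genotype comparison used lmFit and eBayes of limma 3.58.1 (R 4.3.3) without covariates, with Benjamini-Hochberg adjustment over all genes or probe sets, and with exact two-sided permutation of arrays. The fit was tested on simulated data. Members and lists were chosen with earlier results of these data known. Named are the 7 members, the other H2 class II genes, the 3 genes with the smallest p in each list, and the 5 nearest profiles. A few further list genes are named to show a limit. Alternatives covered the filter, the probe-set summary, the scaling, the variance model, a replicate block and leaving out each array.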

Additional observations from a re-analysis of the deposited data

How the results depend on the processing

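H2-Aa, H2-Ab1, H2-Eb1 and Ciita kept a positive and H2-DMa and H2-DMb1 a negative difference under all 14 alternatives, and no member passed adjusted p 0.05 under any of them (limma, adjusted p from 0.348 to 0.990). Differences ranged from 0.24 to 0.66 for H2-Aa, 0.014 to 0.28 for H2-Ab1, 0.20 to 0.48 for H2-Eb1, 0.015 to 0.15 for Ciita, -0.29 to -0.032 for H2-DMa and -0.78 to -0.034 for H2-DMb1. Cd74 turned negative with array weights (-0.19), without wild-type replicate 2 (-0.069) and without Dnmt3a+/- replicate 3 (-0.080), and lay between -0.080 and 0.36 over the left-out arrays. Members past unadjusted p 0.05 numbered 1 without the filter on dim probe sets, 0 with the filter at the 75th percentile, 1 with the median of probe sets and 1 with the replicate block. They numbered 1 to 2 over the left-out arrays, with 1 (H2-Aa) without wild-type replicate 2 or 3, and without Dnmt3a+/- replicate 3 they were H2-Aa, higher, and H2-DMb1, lower. Non-overlapping members numbered 0 at the 75th percentile filter, 1 with the median of probe sets, and 2 to 5 over the left-out arrays, with 5 without Dnmt3a+/- replicate 3, where fewer arrays overlap less often (31.8% of all genes). The members' median was 0.039 to 0.22 over the left-out arrays, highest without Dnmt3a+/- replicate 1 and lowest without wild-type replicate 2. Genes past unadjusted p 0.05 numbered 2593 with array weights and 925 to 1928 over the left-out arrays, against 1502, with 925 without wild-type replicate 2 and 989 without wild-type replicate 3, and 0 passed adjusted p 0.05 in each case. Same-numbered arrays did not deviate together (correlations of -0.048, -0.091 and 0.11). With so few arrays this cannot exclude a pairing, and the labels do not state one. The replicate block moved the count of all genes past unadjusted p 0.05 to 1274. List medians moved beyond 1 SD as follows. With array weights they were -0.24 for loading, -0.13 for lysosomal processing, -0.11 for the transcription machinery (Ciita counted, here and below) and 0.14 for turnover and costimulation. Without the filter they were -0.22 for lysosomal processing and -0.037 for turnover and costimulation, where the sign turned. Cyclic loess gave -0.12 for the transcription machinery. Over the left-out arrays they were -0.51 to -0.12 for loading, -0.22 to -0.10 for lysosomal processing, -0.19 to -0.044 for the transcription machinery and 0.0047 to 0.12 for turnover and costimulation, and the values nearest 0 for the first 3 came without Dnmt3a+/- replicate 2. The cause was not tested for any of these shifts. Without the filter 5 of the 77 member probe sets were past unadjusted p 0.05, where 5.59% of all probe sets were, against 6 of 60 and 6.21% with it. Dim probe sets, such as the 11 of Ciita, limit what these arrays show for it.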
